A study of Mus musculus with 6 samples.

Results

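Antibody-secreting cells in the olfactory mucosa were examined through 9 genes: Igha, Ighm, Jchain, Pou2af1, Mzb1, Derl3, Cd79a, Cd79b and Pigr. RNA had been measured in olfactory epithelium microdissected from 3 Harlequin males (Hq/Y) of B6CBACAw-J/A-Pdcd8-Hq/J background and 3 littermate control males (+/Y) of B6CBACa background, all 6 months of age, with 1 Affymetrix array per mouse. The mice had come from a commercial breeder at 13 weeks of age and received no treatment. Harlequin is a mutation of the X-linked Aifm1, which encodes the mitochondrial apoptosis-inducing factor, and the study related its oxidative stress to degeneration of the olfactory epithelium. The labels call the controls littermates but give the genotypes different strain names, so any difference of background cannot be told apart from the mutation. The members were all probe sets whose platform symbol was exactly 1 of these names, 22 of 45037 probe sets and 9 of 18193 genes with a probe set of their own. They were selected on the Harlequin and control signals of these same 6 arrays, so their genotype differences below are a description and support nothing by themselves.

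Plasma cells are the end stage of the B cell lineage and secrete antibody. In mucosae such as the nose they lie in the connective tissue around glands and secrete mainly immunoglobulin A (IgA), whose units are joined by the J chain and carried through epithelium into the mucus by the polymeric immunoglobulin receptor. On the way from B cell to plasma cell the surface antigen receptor and its signalling partners are reduced, while immunoglobulin synthesis and the secretory machinery of the endoplasmic reticulum are increased. Whole microdissected tissue was measured, so fewer cells of a type and less RNA per cell cannot be told apart.

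Aifm1, the mutated gene, gave a signal of 335.4, 221.1 and 211.2 in Harlequin mice, against 1239.9, 1255.6 and 1128.2 in controls. It passed the test over all genes (limma, log2 difference -2.20, SE 0.18, adjusted p = 0.0158). The tissue markers Omp of mature olfactory neurons (log2 difference 0.04, 95% interval -0.12 to 0.21) and Cyp2g1 of sustentacular cells (0.01, -0.13 to 0.14) were bright in both genotypes. Median signal lay between 109.6 and 113.3 on the Harlequin arrays and between 107.9 and 119.7 on the control arrays. All differences below are Harlequin minus control on the scale of log2(signal + 16), which understates changes of dim genes, and the number of arrays limits their precision.

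The IgA heavy chain and the J chain showed the largest differences among the 8 tested genes, and 2 of 3 Harlequin mice carried most of them. The dim Cd79a exceeded Jchain with a pseudocount of 1 (1.14 against 1.08), with array weights (0.97 against 0.92) and without Harlequin replicate 3 (1.13 against 0.76). The IgM heavy chain gene Ighm overlapped between genotypes, the B cell receptor genes had another order of mice, and the IgA transporter Pigr varied more among Harlequin mice than it differed between genotypes. Of the 9 genes, 8 were bright enough to be tested (mean signal above 61.1), and Cd79a was not. Of these 8, 0 passed at an adjusted p under 0.05 in limma, where 0.0303% of all 13219 genes tested did, and 2, Igha and Jchain, had an unadjusted p under 0.05, as did 4.58% of all genes. All 3 Harlequin values lay above all 3 control values for 3 of the 8, Igha, Pou2af1 and Mzb1, against 5.02% of all genes, and 0 of 8 had all Harlequin values below all control values, against 5.34% of all genes. Nothing is read from these counts, since this comparison chose the members. The median difference was 0.26 over the 8 tested genes and 5.17e-05 over all genes tested.

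**Figure D1:**
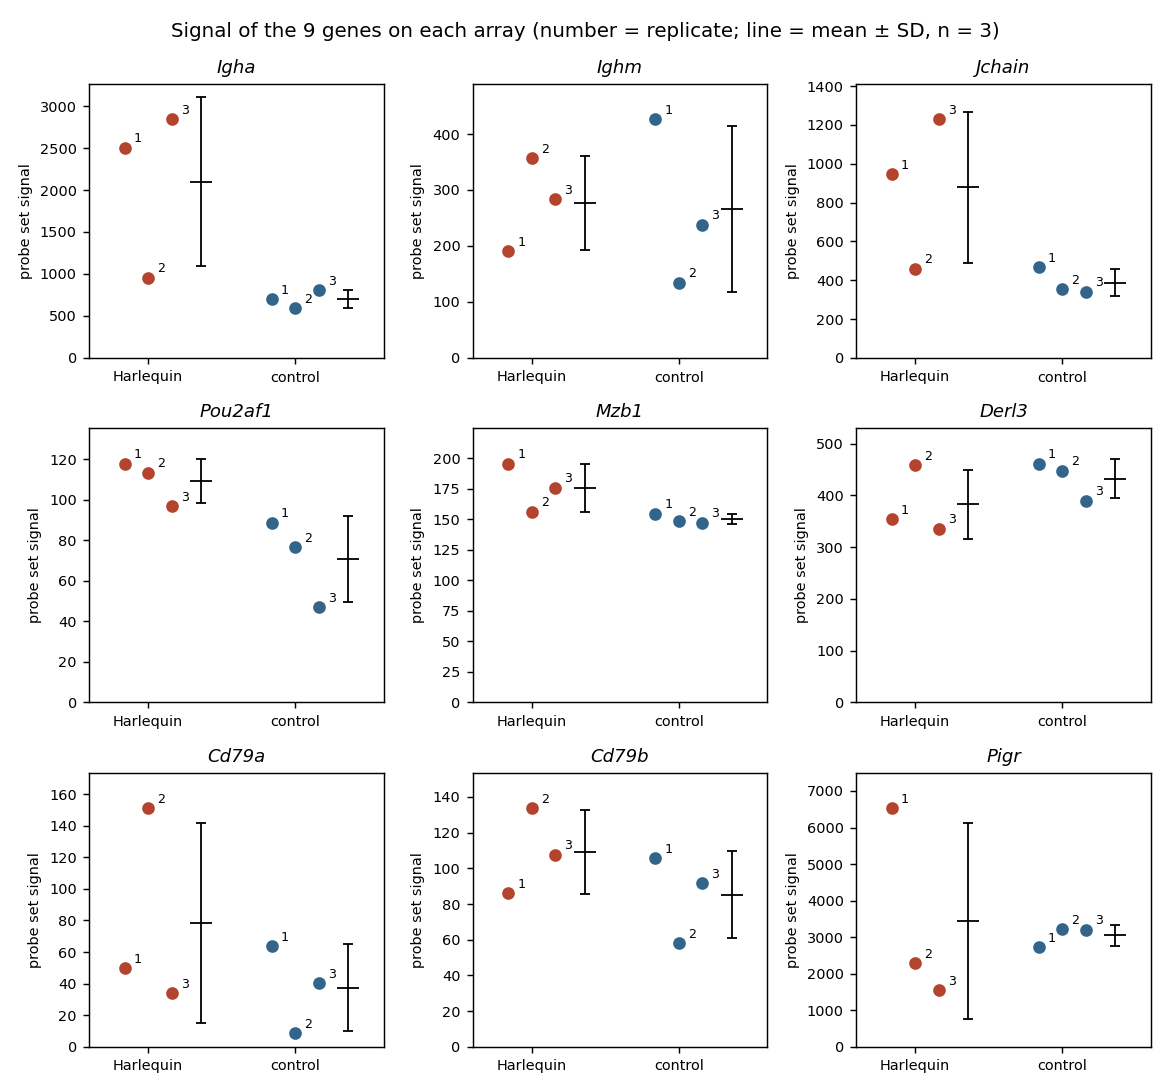
Signal (linear, vertical axes from 0) of the brightest probe set of each gene in 3 Harlequin mice (left) and 3 control mice (right). Points are single arrays numbered by replicate, and black lines give mean ± SD. Igha and Jchain are high in Harlequin replicates 1 and 3, Cd79a is highest in Harlequin replicate 2, and Pigr is highest in Harlequin replicate 1.

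Igha encodes the constant region of the IgA heavy chain. Its brightest probe set gave 2504.3, 956.9 and 2841.9 in Harlequin mice, against 697.2, 594.9 and 806.6 in controls. Harlequin replicates 1 and 3 stood well above every control, and replicate 2 lay just above the highest control. The means were 2101 ± 1005 in Harlequin and 699.6 ± 106 in controls (SD, n = 3 each), a log2 difference of 1.43 (SE 0.36, 95% interval 0.60 to 2.26). The 2 other probe sets, both of the _x_at kind, which may also bind related transcripts, showed the same order of the Harlequin mice. One gave 1803.3, 694.4 and 2074.4 in Harlequin and 557.9, 378.6 and 553.7 in controls. The other gave 1391.1, 544.8 and 1564.5 in Harlequin and 372.2, 345.9 and 424.3 in controls. The log2 differences at these 2 probe sets were 1.46 and 1.44. At each of the 3 probe sets the genotypes did not overlap, as at 4.37% of all probe sets in this direction. Harlequin replicate 2 decided the test of Igha: without it the log2 difference was 1.92 and the limma adjusted p 0.0343, against 0.981 with all 6 arrays. Over the other alternatives the limma adjusted p was 0.890 or higher.

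Jchain encodes the joining chain of polymeric IgA and IgM. It gave 945, 459.5 and 1228.1 in Harlequin mice, against 465.4, 353.4 and 341.3 in controls. Harlequin replicates 1 and 3 were again the 2 highest, while replicate 2 lay inside the range of the controls, so the genotypes overlapped. The means were 877.5 ± 389 in Harlequin and 386.7 ± 68.4 in controls (SD, n = 3 each), with a log2 difference of 1.05 (SE 0.32, 95% interval 0.32 to 1.79).

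Ighm encodes the heavy chain of IgM, which naive B cells carry on their surface and some plasma cells secrete. Of its 11 probe sets, 4 had a mean signal above 61.1, and 4 further probe sets that the annotation ties to Ighm together with other genes were left out. The brightest gave 190.4, 356.9 and 283.7 in Harlequin, against 426.1, 134.4 and 238.2 in controls. Here a control mouse was the highest and another control the lowest, with the Harlequin mice between them. The log2 difference was 0.15 (SE 0.38, 95% interval -0.72 to 1.02), and the other 3 probe sets above that signal differed by -0.02, -0.39 and -0.37. The 7 dimmer ones lay between -0.36 and 0.51. The interval at the brightest probe set reaches well to both sides of 0, so at this precision no direction can be given for IgM.

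Light chains were read from 3 bright probe sets that the annotation ties to several kappa light chain genes at once, so no single gene is named. The brightest gave 4924.9, 3765.8 and 5460.3 in Harlequin, against 3452.7, 2264.8 and 3154.2 in controls, and the differences at the 3 were 0.68, 0.51 and 0.87. Harlequin replicates 1 and 3 were the 2 highest arrays at each of the 3, as for Igha. At the probe set with the difference of 0.51 the genotypes overlapped, since Harlequin replicate 2 (3194.3) lay below control replicate 3 (3321.5). Igkv8-30, a kappa variable gene with a probe set of its own, gave 408.7, 294.9 and 556 in Harlequin, against 310.6, 199.7 and 250.5 in controls. Of 18 immunoglobulin genes with a probe set of their own, 4 were bright enough to be tested and 0 passed in limma, with 2 at an unadjusted p under 0.05. These 4, which include Igha and Ighm, all had a positive difference (median 0.47), and the fourth, the IgG heavy chain Ighg3, gave 124.2, 169.6 and 149.2 in Harlequin, against 87.4, 135.3 and 139.2 in controls.

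**Figure D2:**
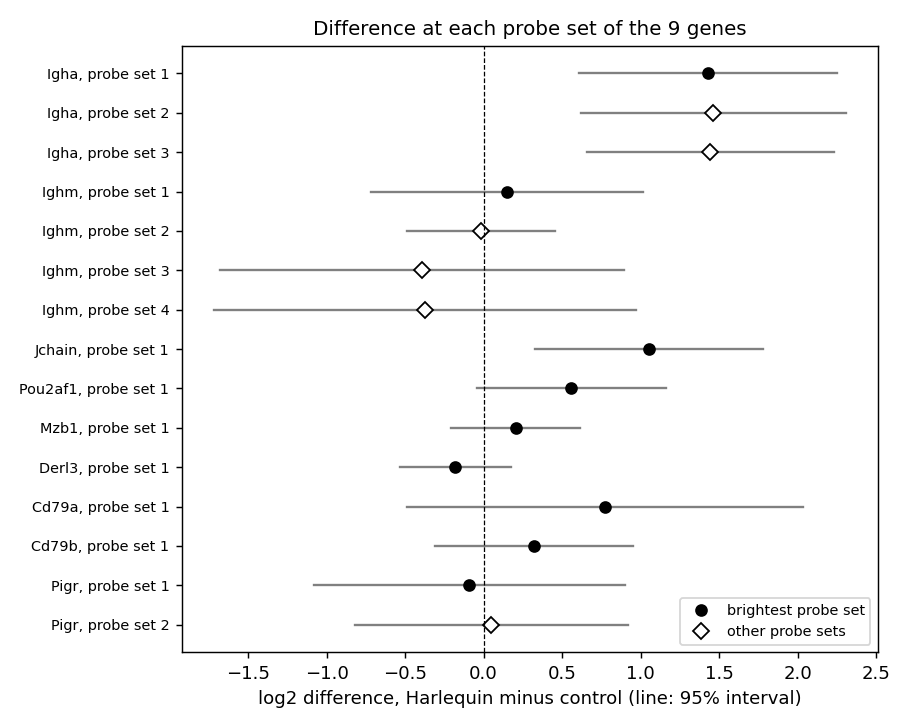
Log2 difference, Harlequin minus control (horizontal axis), at the 14 probe sets of the 9 genes with a mean signal above 61.1 and at the dimmer one of Cd79a, with 95% intervals from a limma fit over all probe sets. Filled circles are the brightest probe set of a gene and open diamonds the others. The 3 Igha probe sets lie together at 1.43 to 1.46, while those of Ighm and Pigr lie on both sides of 0.

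Pou2af1, Mzb1 and Derl3 serve antibody production inside the cell. Pou2af1 is a B cell coactivator that works with octamer-binding factors at immunoglobulin promoters. It gave 117.6, 113.3 and 96.8 in Harlequin mice, against 88.6, 76.4 and 47 in controls. All Harlequin values lay above all control values, the spread among Harlequin mice was small, and replicate 2 was not set apart as it was for Igha. The log2 difference was 0.56 (SE 0.25, 95% interval -0.01 to 1.12) at a dim probe set. Mzb1, an endoplasmic reticulum protein that helps assemble and secrete immunoglobulin, gave 195.5, 156.2 and 176 in Harlequin, against 154.6, 148.4 and 147.3 in controls. The genotypes did not overlap, but Harlequin replicate 2 exceeded control replicate 1 by only 1.6 signal units. The log2 difference was 0.20 (SE 0.16).

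Derl3 belongs to the derlin family, which takes part in removing misfolded proteins from the endoplasmic reticulum. It gave 353.9, 458.6 and 335.7 in Harlequin mice, against 461, 447.6 and 389.5 in controls. The 2 Harlequin mice with high Igha were the 2 lowest for Derl3, and replicate 2 lay among the controls. The log2 difference was -0.18 (SE 0.16, 95% interval -0.54 to 0.18).

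Cd79a and Cd79b encode the signalling pair of the B cell antigen receptor. Cd79a, below the signal needed for testing, gave 49.8, 150.9 and 34.1 in Harlequin mice, against 63.7, 8.5 and 40.4 in controls. Harlequin replicate 2 was the highest array and control replicate 2 the lowest, with the other 4 close together. The log2 difference of 0.77 (SE 0.55, from a fit without the signal filter) shrank to 0.26 without Harlequin replicate 2. Cd79b gave 86.2, 133.6 and 107.7 in Harlequin, against 105.7, 58.2 and 91.7 in controls. The same 2 arrays were highest and lowest, and the genotypes overlapped (log2 difference 0.32, SE 0.26).

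Pigr encodes the epithelial receptor that carries polymeric IgA and IgM into the nasal lumen. Its brightest probe set gave 6523.7, 2283.1 and 1554.8 in Harlequin mice, against 2718.3, 3223.4 and 3200.5 in controls. The highest array and the 2 lowest were all Harlequin. The other probe set kept the highest array and the 2 lowest. It gave 3855.9, 1673.5 and 1065.9 in Harlequin, against 1797.9, 1967.8 and 1760.9 in controls. The means at the brightest probe set were 3454 ± 2683 in Harlequin and 3047 ± 285 in controls (SD, n = 3 each). The log2 difference was -0.09 (SE 0.44, 95% interval -1.09 to 0.91), and it was -0.68 without Harlequin replicate 1 and 0.34 without Harlequin replicate 3.

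The spread among mice is described next. It rests on the same arrays, and for Igha and Jchain on the same high Harlequin replicates 1 and 3, as the difference of the means, so it is not separate from the choice of the genes. For Igha the SD of log2 values was 0.85 among Harlequin mice, larger than in 98.9% of the genes tested, and 0.21 among controls, larger than in 64.8%. Jchain had SDs of 0.72 in Harlequin and 0.24 in controls. For Pigr they were 1.07 in Harlequin, above 99.4% of genes, and 0.14 in controls, above 41.1%. The highest Harlequin mouse exceeded the lowest 4.16-fold for Pigr and 2.94-fold for Igha, on the scale with 16 added, against 1.18-fold and 1.35-fold among controls. Ighm went the other way, with SDs of 0.43 in Harlequin and 0.78 in controls. With 3 mice per genotype these SDs are themselves imprecise, and the difference in spread was not tested.

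**Figure D3:**
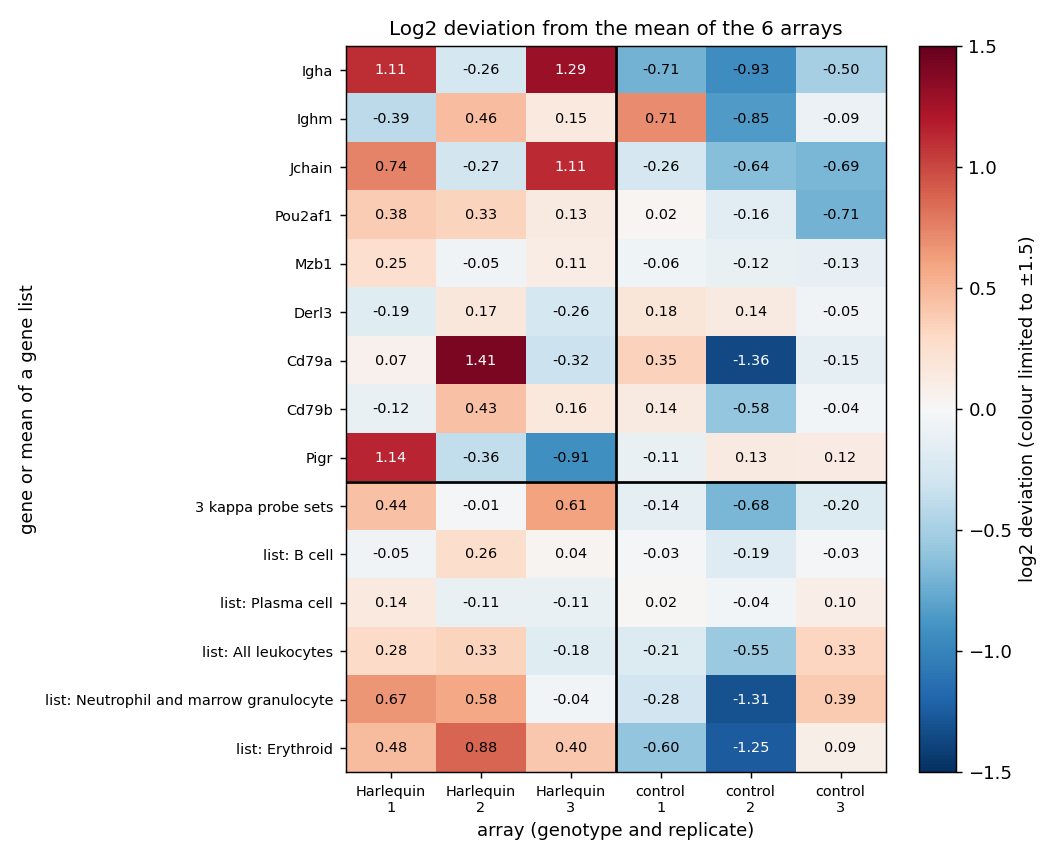
Log2 deviation of each gene from its mean over the 6 arrays (rows 1 to 9), then the mean deviation of 3 kappa light chain probe sets and of 5 marker lists, for 3 Harlequin (left of the line) and 3 control arrays. Red is above and blue below the mean, with the value printed in each cell. Igha, Jchain and the kappa probe sets share 1 pattern, led by Harlequin replicates 1 and 3, while Cd79a and Cd79b are led by Harlequin replicate 2.

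Secreted and surface genes were set against each other within each array, as a log2 ratio whose mean over the 6 arrays is 0. Ighm, also a secreted gene, was left out of the first ratio, which includes the dim, untested Cd79a. The mean difference of the secreted genes was 1.24 without Ighm and 0.88 with it, beside 0.55 for Cd79a and Cd79b. The ratio of Igha and Jchain to Cd79a and Cd79b was 0.95, -1.19 and 1.28 in Harlequin mice, against -0.72, 0.18 and -0.50 in controls. Harlequin mice thus held the 2 highest ratios and also the lowest. The ratio of Igha to Ighm was 1.50, -0.73 and 1.14 in Harlequin, against -1.42, -0.09 and -0.41 in controls, with replicate 2 inside the control range. The ratio of Igha to Pigr was -0.03, 0.10 and 2.21 in Harlequin, against -0.59, -1.06 and -0.62 in controls. This was the 1 ratio of the 3 in which the genotypes did not overlap. Igha on its own did not overlap either and was chosen on this comparison, so nothing is read from that separation. In Harlequin replicate 1 both Igha and Pigr were high, and in replicate 3 Igha was high while Pigr was the lowest of the 6 arrays. Such ratios show unequal differences and not that either gene was constant.

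**Figure D4:**
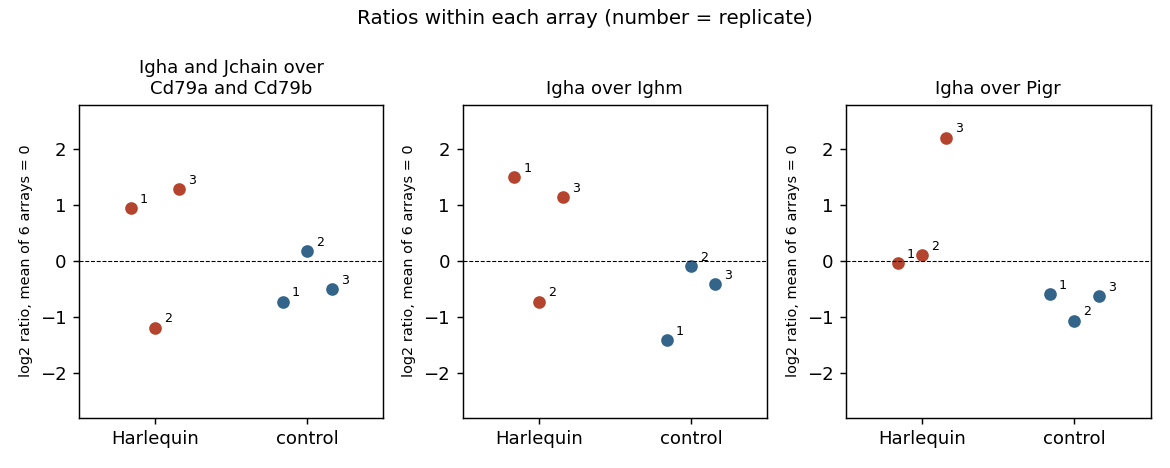
Log2 ratio within each array, with the mean of the 6 arrays set to 0 (vertical axes), for 3 Harlequin mice (left) and 3 controls (right), numbered by replicate. In the left and middle panels Harlequin replicate 2 lies at -1.19 and -0.73, apart from Harlequin replicates 1 and 3. In the right panel all Harlequin values lie above all control values.

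Genes with a pattern like that of Igha were ranked by the Pearson r of log2 values over the 6 arrays, as a description. Jchain reached 0.962 and ranked 18 of 13218 genes, Mzb1 reached 0.911 and ranked 59, and 78 genes (0.590%) exceeded 0.9. The coactivator Pou2af1 reached 0.52, Cd79b 0.26, Cd79a 0.09, Pigr 0.03, Ighm -0.01 and Derl3 -0.88. The 6 genes with the highest r, 0.972 to 0.992, were Lipe, Cfl2, Cnnm3, Aspscr1, Nr2c1 and Glod4. Lipe encodes hormone-sensitive lipase and Cfl2 a muscle cofilin. None of these 6 is among the 9 genes. After each genotype's mean was subtracted, which removes the difference between genotypes, Jchain had an r of 0.904, Mzb1 0.775, Pigr 0.15, Ighm -0.23, Pou2af1 -0.30, Cd79b -0.32, Cd79a -0.58 and Derl3 -0.94, and 1.54% of all genes exceeded 0.9. The 6 highest were then Gfus, Mtr, Tmprss2, Actr1a, Sec61a2 and Phyh, at 0.989 to 0.999. The likeness of Jchain and Mzb1 to Igha rested on Harlequin replicates 1 and 3: over the other 4 arrays r was 0.39 for Jchain and 0.49 for Mzb1.

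Promoter sequence from the RefSeq table (GRCm38.p6) was read for 5 of the 9 genes. The others, Mzb1 among them, were left out of this reading. Those of Jchain and Pou2af1, whose signals were higher on average in Harlequin, and of Derl3 and Pigr, whose mean log2 signals were slightly lower, are printed as the 250 bases before the transcript start. Capitals mark matches on either strand to 4 motifs, chosen after the sequences were seen: the E-box CACGTG, the unfolded protein response element TGACGTGG, the immunoglobulin octamer ATGCAAAT and the endoplasmic reticulum stress element, which is CCAAT and CCACG with 9 bases between them.
Jchain (chr5:88527898-88528147, minus strand): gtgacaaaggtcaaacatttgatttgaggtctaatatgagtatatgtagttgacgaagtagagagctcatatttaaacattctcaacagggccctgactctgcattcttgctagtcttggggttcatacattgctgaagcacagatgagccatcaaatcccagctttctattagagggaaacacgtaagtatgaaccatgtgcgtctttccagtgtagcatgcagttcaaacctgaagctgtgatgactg
Pou2af1 (chr9:51213440-51213689, plus strand): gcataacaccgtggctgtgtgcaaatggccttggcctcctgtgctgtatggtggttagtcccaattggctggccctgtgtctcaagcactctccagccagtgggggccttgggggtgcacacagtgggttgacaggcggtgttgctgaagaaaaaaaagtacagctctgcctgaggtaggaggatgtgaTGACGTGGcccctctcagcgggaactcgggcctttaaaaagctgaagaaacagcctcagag
Derl3 (chr10:75893148-75893397, plus strand): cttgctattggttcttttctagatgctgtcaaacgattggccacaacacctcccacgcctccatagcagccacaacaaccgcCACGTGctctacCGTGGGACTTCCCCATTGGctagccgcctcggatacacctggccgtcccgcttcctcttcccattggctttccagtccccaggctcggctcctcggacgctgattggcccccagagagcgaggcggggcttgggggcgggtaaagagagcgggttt
Pigr (chr1:130826434-130826683, plus strand): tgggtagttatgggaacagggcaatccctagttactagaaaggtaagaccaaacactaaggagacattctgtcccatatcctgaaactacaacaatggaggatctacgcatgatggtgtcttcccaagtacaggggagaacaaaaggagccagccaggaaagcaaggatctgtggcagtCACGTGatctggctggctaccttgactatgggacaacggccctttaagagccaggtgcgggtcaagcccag

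With the base before the start counted as -1, the Pou2af1 window held an unfolded protein response element from -61, a motif found in 0.563% of 32851 promoter windows of this length. The Derl3 window held an E-box from -168 and an endoplasmic reticulum stress element on the opposite strand from -156, a motif found in 0.113% of windows, and the 2 did not overlap. The Pigr window held an E-box from -71, as 6.02% of windows hold at least 1. The octamer, found in 1.60% of windows, was in none of the 4, and the Jchain window held none of the 4 motifs. These are matches of letters and say nothing of binding in these mice.

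Other genes of plasma cells and of the secretory pathway were read from lists. Of 16 plasma cell genes 10 were tested, 5 with a positive and 5 with a negative difference (median -0.01), and 0 passed in limma, with 1 at an unadjusted p under 0.05. That gene was Sec11c, a signal peptidase subunit, at 3523.2, 3034.7 and 3548.6 in Harlequin, against 3561.7, 4508.7 and 4192.7 in controls. Xbp1, the transcription factor of the secretory programme, which other secretory cells of the nose also use, differed by -0.08 (SE 0.08) at a bright signal. Slamf7 and Irf4, a surface receptor and a transcription factor of plasma cells, were below the signal needed for testing. Slamf7 gave 59.4, 42.9 and 38.9 in Harlequin, against 23.4, 22.2 and 28.4 in controls, so the genotypes did not overlap at this dim level.

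All 24 endoplasmic reticulum secretory genes were tested, 11 with a positive and 13 with a negative difference (median -0.03), and 0 passed in limma, with 0 at an unadjusted p under 0.05. Herpud1, of the same degradation pathway as Derl3, differed by 0.28 and the co-chaperone Dnajc3 by -0.19. Summed signal of the list ran from 87547 to 94092 on Harlequin arrays and from 91095 to 97656 on control arrays, ranges that overlap.

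Of 24 listed B cell genes 12 were tested, 10 with a positive and 2 with a negative difference (median 0.14), and 0 passed in limma, with 1 at an unadjusted p under 0.05. That gene was Blnk, an adaptor of B cell receptor signalling, at 1765.7, 1453.6 and 2017.8 in Harlequin, against 1453.5, 1100 and 1317 in controls. Bank1, a B cell scaffold protein, gave 65.3, 136.7 and 62.5 in Harlequin, against 64.1, 58.2 and 42.3 in controls. The surface marker Ms4a1 gave 55.9, 105.2 and 57 in Harlequin, against 63.2, 61.6 and 64 in controls. Harlequin replicate 2 was the highest array for 4 of the 12 tested genes, Bank1 and Ms4a1 among them. Harlequin replicate 3 was highest for 4, Harlequin replicate 1 for 1 and a control for 3, so the genes differed in their order. Mean log2 deviations of the list were -0.05, 0.26 and 0.04 in Harlequin, against -0.03, -0.19 and -0.03 in controls. By this mean Harlequin replicate 2 was the highest array and control replicate 2 the lowest, as for Cd79a and Cd79b. Dim B cell markers such as Pax5 and Cr2 were below the signal needed for testing. The list includes genes that olfactory tissue itself uses, such as Ebf1, also known from olfactory neurons.

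Genes of IgA switching, homing and survival came next. Of 23 listed genes 13 were tested, 8 with a positive and 5 with a negative difference (median 0.07), and 0 passed in limma, with 0 at an unadjusted p under 0.05. Ccl28, a chemokine that attracts IgA plasma cells, gave 752.4, 600.8 and 620.8 in Harlequin, against 601.8, 566 and 1018.9 in controls. Aldh1a2, an enzyme that makes retinoic acid, differed by -0.51, and the adhesion molecule Vcam1 by 0.82, with overlap between the genotypes in both. Of 16 genes of Pigr regulation and epithelial transport 14 were tested, 6 with a positive and 8 with a negative difference (median -0.02), and 0 passed, with 0 at an unadjusted p under 0.05. The motor Myo5b differed by -0.13 and the recycling protein Rab11a by -0.09, while Relb differed by 0.31 (SE 0.28) and Il4ra by 0.13.

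Markers of other blood cells also differed between arrays. The neutrophil and marrow granulocyte list, tested at 9 of 10 genes, had 9 positive differences (median 0.78), with Chil3 alone passing. Its summed signal ran from 32549 to 51162 on Harlequin arrays and from 13731 to 41434 on control arrays. The erythroid list, tested at 5 of 11 genes, had 5 positive differences. Their median of 1.43 was as large as the difference of Igha (1.43). Of these 5 genes 0 passed in limma, 4 had an unadjusted p under 0.05, and 3 had no overlap between genotypes. The summed signal of this list ran from 3239 to 4242 on Harlequin arrays and from 832.9 to 2294 on control arrays. General leukocyte genes, tested at 8 of 8, had 7 positive differences (median 0.30), with 0 passing and 0 at an unadjusted p under 0.05, and a sum of 3831 to 5796 in Harlequin and 2912 to 5634 in controls. Mean log2 deviations of the leukocyte list were 0.28, 0.33 and -0.18 in Harlequin and -0.21, -0.55 and 0.33 in controls. Control replicate 2 was the lowest array for these 3 lists and for Igha, Ighm, Cd79a and Cd79b. Chil3 did not follow its list there: control replicate 2 was its highest control, at 581.9, against 293.8 and 404.8 in control replicates 1 and 3. Harlequin replicate 3, with the highest Igha, had a lower leukocyte value than Harlequin replicate 2, with the lowest Harlequin Igha. The part of these markers in the immunoglobulin values was not tested.

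Most T cell and early B lineage markers were below the signal needed for testing. Of 12 T cell genes 3 were tested, with a summed signal of 530.8 to 794.1 in Harlequin and 499.9 to 641.3 in controls, and 0 passed in limma, with 1, Cd8a, at an unadjusted p under 0.05. Cd3e and Cd3d stayed below 24 on every array. Of 10 early marrow B lineage genes 4 were tested, 1 with a positive and 3 with a negative difference, and 0 passed, with 0 at an unadjusted p under 0.05. Rag1, Rag2 and Vpreb1, which define developing B cells, were at 1.5 to 16.6 in Harlequin and 2.3 to 37.6 in controls. Vpreb3 gave 586.5, 242 and 286.9 in Harlequin, against 241.6, 188.6 and 229.8 in controls. Cd93 of the same list went the other way, at 201.5, 208.8 and 110.8 in Harlequin, against 228, 224.4 and 245.3 in controls.

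Cell cycle genes, tested at 5 of 6, had 5 positive differences (median 0.31), with 0 passing in limma and 2, Ccna2 and Mki67, at an unadjusted p under 0.05. Their summed signal ran from 1860 to 2202 on Harlequin arrays and from 1317 to 1964 on control arrays. Respiratory epithelium and gland genes, whose tissue surrounds mucosal plasma cells, were tested at 10 of 12, with 2 positive and 8 negative differences (median -0.11). Of these 0 passed and 2, Lcn11 and Obp1a, had an unadjusted p under 0.05. Olfactory epithelium markers, tested at 11 of 12, had a median difference of 0.01, with 0 passing and 1, Trp63, at an unadjusted p under 0.05.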

How the data were processed

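Per the labels' protocols, olfactory epithelium was frozen and its RNA labelled with biotin for Affymetrix arrays. The authors deposited 1 linear intensity per probe set and array, and the summarising software is not given in the sources used here. Each array's mean without its lowest and highest 2% was 500.0, as after scaling by 1 factor per array. Gene symbols are those of the platform annotation. The 64 control probe sets were left out. A gene's brightest probe set, by mean log2(value + 16), stood for it, and genes above the 40th percentile of probe set means (a signal of 61.1) were tested. The log2 values of both genotypes were fitted in limma 3.58.1 (R 4.3.3) with an intensity trend, two-sided, and p-values were adjusted over 13219 genes by Benjamini-Hochberg at a threshold of 0.05. Cd79a, dimmer than that, was read from a fit without the filter. The 3 arrays per genotype are labelled as biological replicates. In 5 simulated data sets, each with 13219 genes, the fit found 94% of those given a shift of 1 log2 unit, with a false share of 4.1%. That recovery holds for the simulated noise only and is no measure of power for genes as variable among mice as Igha. In the real arrays Igha, with a log2 difference of 1.43 (SE 0.36), had a limma adjusted p of 0.981. Summaries and figures used Python 3.11.15, pandas 2.3.3 and matplotlib 3.10.9.

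The members and the 14 gene lists were chosen with earlier results of these data known. Named are all members, the 6 genes most like Igha over the arrays and after centring, Aifm1, Omp and Cyp2g1, and up to 4 genes per list, those with the smallest unadjusted p. Ms4a1, Pax5, Cr2, Ebf1, Ccl28, Cd3d, Cd3e, Rag1, Vpreb1 and Ighg3 were named after their values were seen. Alternatives were other pseudocounts, filters, normalizations, variance models and probe set rules, the replicate number as a block, and leaving out single arrays.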

Additional observations from a re-analysis of the deposited data

How the results depend on the processing

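Over all genes, 4 were called, and 0 without an intensity trend (643 genes at an unadjusted p under 0.05), while leaving out 1 array gave 0 to 3, with 0 without control replicate 1 or 3, 1 without Harlequin replicate 1 and 2 without either replicate 2. With the replicate number as a block 0 were called (541 at an unadjusted p under 0.05). Deviations of same-numbered arrays correlated at -0.24, -0.03 and 0.06, so the numbers were not taken as pairs, and no member was called in either fit. The mean differences of the 3 secreted (0.88), 3 machinery (0.19) and 2 receptor genes (0.55) and of Pigr moved by less than 1 SD between replicates, pooled over both genotypes, under every alternative that gave a value. These SDs are wide: the receptor mean was 0.20 without control replicate 2, 0.22 without Harlequin replicate 2 and 0.33 with a pseudocount of 64, and the machinery mean was 0.10 without control replicate 3 and 0.12 with a pseudocount of 64. Igha ranged from 1.14 to 1.92 and passed only without Harlequin replicate 2. Jchain ranged from 0.76 to 1.45, Pou2af1 from 0.35 to 0.71, Mzb1 from 0.13 to 0.28, Derl3 from -0.31 to -0.10, Cd79a from 0.26 to 1.14 and Cd79b from 0.11 to 0.47, with no change of sign. Ighm (-0.24 to 0.54) changed sign in 3 of 18 alternatives and Pigr (-0.68 to 0.34) in 2 of 18. A filter at the 60th percentile left no value for Pou2af1, Mzb1, Cd79a and Cd79b. The number of members without overlap, higher in Harlequin, was 3 or 4 with any 1 array left out, beside 8.59% to 11.2% of all genes tested, against 3 and 5.02% with all arrays, an alternative added after seeing the data. Dim signal limits Cd79a, Cd79b and Pou2af1 most.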
